A study of Mus musculus with 15 samples.

Results

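The genes described here are the 171 mouse protein-coding genes on chromosomes 1 to 19 and X whose symbol in GENCODE release M21 is Zfp followed by a number of 3 digits from 600 upward. They were chosen by symbol alone, out of 21755 protein-coding genes. For each of them the best H3K4me3 summit was looked up, that is, the highest-scoring peak position within 1 kb of any annotated transcription start site (TSS). A gene with such a summit is called marked below, and a gene without one unmarked. An unmarked gene is one at which no summit was listed, which is not the same as a promoter without H3K4me3.

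The series comprised 11 H3K4me3 ChIP-seq samples and 4 inputs from adult male amygdala, of the genotypes WT, Kmt2a-HET, Kdm5c-KO and DM (both mutations together), all in the F1 generation 129xB6. The values come from the WT mice, which carry neither mutation. About 20000 nuclei per sample were digested with micrococcal nuclease and precipitated with the monoclonal antibody RM340. The authors deposited the WT summits as 1 list for both mice, so no spread between mice can be given, no genotypes were compared, and depth cannot be read from the list. Each summit carries a score, taken to be −log10 of the q-value over input, so a score measures evidence for a peak and grows with depth as well as with enrichment. The list holds 24162 summits, 24139 of them on chromosomes 1 to 19, X and Y, with a median score of 102. In bulk tissue, a mark in fewer cells and less mark per cell cannot be told apart. The promoters of 6 of 6 neuronal marker genes, 3 of 3 astrocyte and 3 of 3 oligodendrocyte markers and the endothelial gene Cldn5 held a summit, and those of Alb, Ins2, Myh6 and Krt5, genes of other organs, held none.

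Most genes named Zfp encode C2H2 zinc finger proteins, in which each finger folds around a zinc ion and contacts a few bases of DNA, so that a row of fingers reads a long sequence. Many also carry a KRAB domain, which binds the corepressor TRIM28 and thereby brings the H3K9 methyltransferase SETDB1 to the bound DNA. KRAB zinc finger genes arose by repeated local duplication, stand in clusters of near copies, and are best known for silencing retrotransposons. H3K4me3 is the histone mark found around the start sites of active and poised genes, and CpG-rich promoters carry it in most tissues. Of the 171 genes, 153 encoded at least 3 fingers in their longest coding sequence, with a median of 11 and up to 33 in Zfp619. A KRAB A box pattern was found in 97, or 56.7%, beside 36.1% of Zfp genes numbered below 600. It is a fixed pattern of residues, so genes without it may still carry a diverged KRAB domain.

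A promoter summit was present at 137 of the 171 genes, or 80.1% (95% Wilson interval 73.5 to 85.4, covering counting error only), where 65.2% of all protein-coding genes had one. Zfp genes numbered below 600 were marked in 184 of 194 cases (94.8%), and Zbtb, Zscan and Zkscan genes, other families of zinc finger transcription factors, in 56 of 67 (83.6%). Among other protein-coding genes with at least 3 fingers the share was 82.3%. Best scores of the marked genes had a median of 211, with quartiles of 163 and 241, and ran from 15.4 to 342. The median over all marked protein-coding genes was 195, and that of marked Zfp genes below 600 was 214. At 126 genes, or 73.7%, the best score reached the median of the list, which 52.5% of all protein-coding genes did. Because the genes come from 1 pooled list and are not replicates, none of these differences was tested. At the edge of the symbol rule, Zfp600 was unmarked, Zfp605 scored 230.4 and Zfp606 269, and just outside it Zfp598 scored 200.2 and Zfp599 186.

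**Figure D1:**
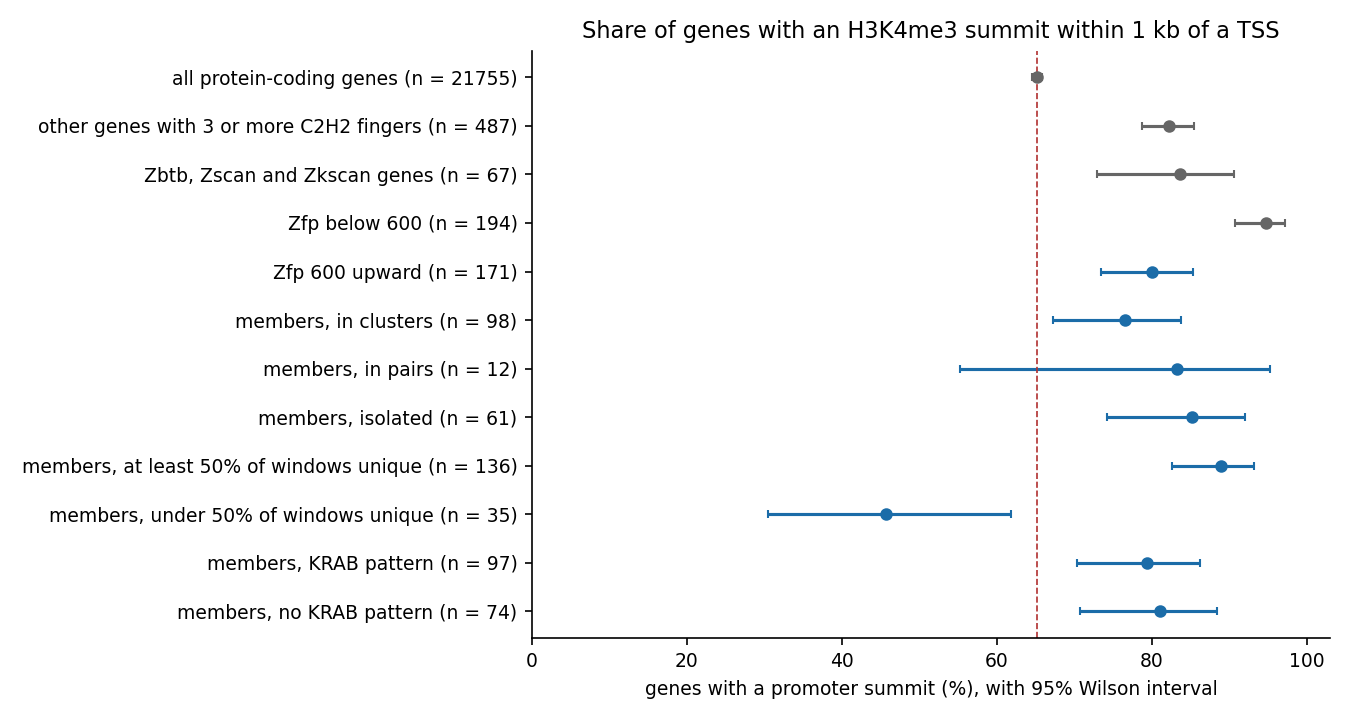
Share of genes with a summit within 1 kb of a TSS (x axis, percent), for the 171 Zfp genes numbered 600 upward and for other sets; bars are 95% Wilson intervals and the dashed line is the 65.2% of all protein-coding genes. The genes whose promoters are mostly unique in the genome sit at 89.0%, and those with repeated promoters at 45.7%.

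The marked genes spread over 17 chromosomes, and the unmarked ones were concentrated on 2. On chromosome 17, 22 of 22 genes were marked, on chromosome 13 10 of 10, and on chromosomes 6 and 9 8 of 8 each. The largest number stood on chromosome 7, where 32 of 35 were marked with a median score of 217, and on chromosome 8 15 of 16 were marked with a median of 216. Chromosome 2 had 7 marked of 15 and chromosome 4 had 5 of 20. These 2 chromosomes held 23 of the 34 unmarked genes, although 61.5% of the other protein-coding genes on chromosome 2 and 67.1% of those on chromosome 4 were marked. Elsewhere, 125 of 136 genes (91.9%) were marked. The share on chromosome 13 rests on internal start sites, since it was 60% when only the outermost TSS of each gene was used.

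**Figure D2:**
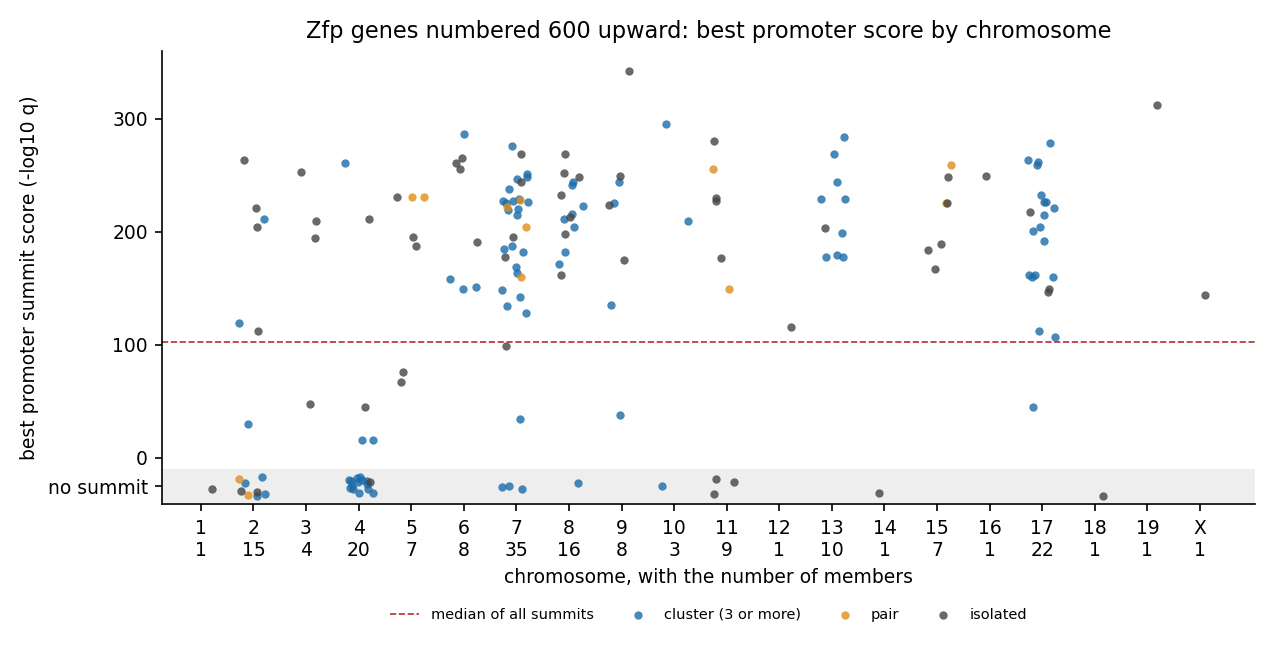
Best promoter summit score (y axis, −log10 q) of each of the 171 genes by chromosome, with the number of genes below each chromosome name; genes without a summit lie in the grey band. Chromosomes 2 and 4 hold most of the band, while the genes of chromosome 17 lie between 44.9 and 278.

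The same genes can be read by their neighbourhood. Genes whose bodies lay at most 250 kb apart were chained, which gave 20 clusters of 3 or more with 98 genes, 6 pairs, and 61 isolated genes. Of the clustered genes 75 (76.5%, interval 67.2 to 83.8) were marked, of the paired ones 10 of 12, and of the isolated ones 52 (85.2%, interval 74.3 to 92.0). The order of the clustered and isolated shares depended on the processing. With genes chained at 100 kb they were 85.9% and 77.6%, and without the genes with repeated promoters described below 91.3% and 84.5%. Marked genes in clusters and isolated ones had the same median score of 211. In 11 clusters every gene was marked, in 3 none was, and 6 were mixed.

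**Figure D3:**
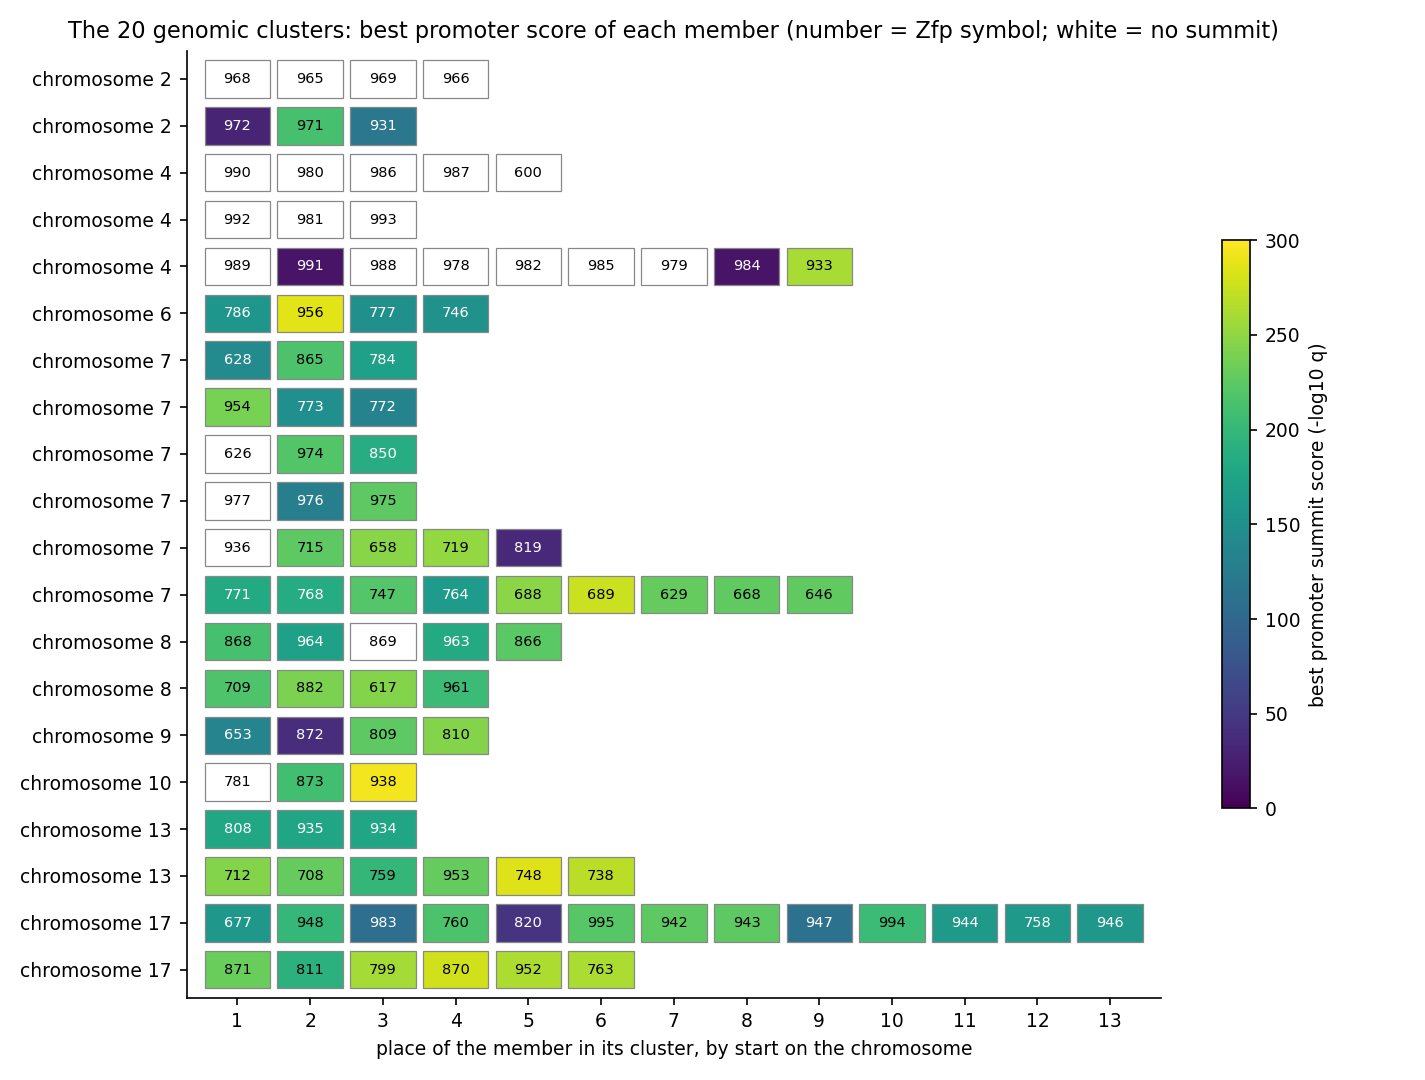
Each row is 1 of the 20 clusters and each box a gene, numbered by its symbol and ordered by position; colour gives the best promoter score (−log10 q) and white boxes have no summit. All boxes are white in 3 clusters, 1 on chromosome 2 and 2 on chromosome 4, and 6 of 9 in another cluster of chromosome 4, whereas every box of the 13-gene and 6-gene clusters on chromosome 17 is coloured.

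The largest cluster lies at chr17:21383748-22456689 and holds 13 genes, all with the KRAB pattern and all marked. Its scores were 226 at Zfp942 and Zfp943, 221 at Zfp995, 215 at Zfp760, 204 at Zfp994 and 200.2 at Zfp948. Next came 162 at Zfp944 and Zfp758, and 159.8 at Zfp677 and Zfp946, followed by 112 at Zfp947, 107 at Zfp983 and 44.9 at Zfp820. Within 1073 kb the scores thus ran from above 38.3% of the list to above 85.2% of it, and Zfp820 alone in the cluster lay below the list median of 102. The cluster contains 2 head-to-head pairs, Zfp942 with Zfp943 and Zfp944 with Zfp758, and in each 1 summit was the best of both genes. These summits lay inside Zfp942 and Zfp944, 238 and 278 bp downstream of their start sites. From the start sites of Zfp943 and Zfp758 they were 339 and 331 bp upstream. The promoters of Zfp943 and Zfp758 are 97.3% identical, and those of Zfp942 and Zfp944 91.3%. The second cluster of that chromosome, at chr17:32765496-33033402, had 6 KRAB genes with a median of 261. They were Zfp870 at 278, Zfp952 at 263, Zfp763 at 262, Zfp799 at 259, Zfp871 at 232 and Zfp811 at 192.

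A cluster of 9 genes at chr7:127244274-127885996 was also fully marked, with scores between 163 and 276. Zfp689 was highest at 276 and Zfp688 had 248, while Zfp629 had 229 and the head-to-head pair Zfp646 and Zfp668 shared a summit of 227. Below them came Zfp747 at 220.0, Zfp768 at 185, Zfp771 at 182 and Zfp764 at 163. Only 4 of these 9 have the KRAB pattern, against all 13 of the large chromosome 17 cluster. In the remaining marked clusters the highest genes were Zfp748 (284, chromosome 13), Zfp956 (286, chromosome 6), Zfp617 (244, chromosome 8), Zfp810 (244, chromosome 9), Zfp865 (215, chromosome 7), Zfp954 (238, chromosome 7), Zfp971 (211, chromosome 2) and Zfp808 (179, chromosome 13). Zfp938 on chromosome 10 reached 295, next to Zfp873 at 209.7 and the unmarked Zfp781. The other mixed clusters were led by Zfp719 (251), Zfp975 (225) and Zfp974 (219) on chromosome 7 and Zfp866 (223) on chromosome 8, and each held 1 unmarked gene.

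The other cluster of 9 genes, at chr4:146971976-147848366, was the opposite. Of its members, 6 were unmarked, namely Zfp989, Zfp988, Zfp978, Zfp982, Zfp985 and Zfp979. Zfp991 scored 15.4 and Zfp984 15.9, the 2 lowest scores of any marked gene, and only Zfp933 at its distal end, with 261, lay above the list median. Next to it, the clusters at chr4:145510759-146198755 (Zfp990, Zfp980, Zfp986, Zfp987 and Zfp600) and chr4:146449023-146658160 (Zfp992, Zfp981 and Zfp993) had no marked gene. Together the 3 clusters hold 17 genes, all with the KRAB pattern, of which 3 were marked. On chromosome 2, Zfp968, Zfp965, Zfp969 and Zfp966 (chr2:175372436-175931100) and the pair Zfp967 and Zfp973 were unmarked. Of their neighbours farther along the chromosome, Zfp970 scored 112, Zfp972 29.9, Zfp971 211 and Zfp931 119.

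Those unmarked clusters are built of near copies, which bears on what a list of uniquely mapped reads can show. The reads were 75 bases long and the authors kept only uniquely mapped ones with at most 2 mismatches. Every 75-base window, 1 each 25 bases, within 1 kb of the start sites was therefore searched for places with at most 2 mismatches. The share of windows with a single such place in the reference genome was taken for each gene. The stretches below show the 150 bases directly upstream of the RefSeq TSS (GRCm38.p6), 5′ to 3′ on the strand of the gene, with CpG in capitals. Zfp966 (chr2:175931101-175931250, minus strand) is unmarked and had 0% unique windows. Zfp971 (chr2:178023134-178023283, plus strand), whose score of 211 is the middle of all marked genes, had 18.5%, and Zfp931 (chr2:178078426-178078575, minus strand), with a score of 119, had 6.33%. Where the stretches of Zfp966 and Zfp971 align, 134 bases are identical and 2 differ.
Zfp966: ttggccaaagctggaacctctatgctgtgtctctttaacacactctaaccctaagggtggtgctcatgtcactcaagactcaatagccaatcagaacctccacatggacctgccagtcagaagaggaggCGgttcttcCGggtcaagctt
Zfp971: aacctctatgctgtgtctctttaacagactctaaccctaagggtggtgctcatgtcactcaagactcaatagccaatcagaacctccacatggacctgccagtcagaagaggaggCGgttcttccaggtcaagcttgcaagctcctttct
Zfp931: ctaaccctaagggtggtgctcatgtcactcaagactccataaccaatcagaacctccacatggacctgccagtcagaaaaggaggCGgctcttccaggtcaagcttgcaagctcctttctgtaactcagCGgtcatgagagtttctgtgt

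On chromosome 4, Zfp979 (chr4:147642509-147642658, minus strand) and Zfp982 (chr4:147492267-147492416, plus strand) are unmarked, with 2.56% and 63.0% unique windows. Zfp984 (chr4:147809789-147809938, minus strand) scored 15.9 with 48.7%, and Zfp933 (chr4:147848419-147848568, minus strand) scored 261 with 100%. They are printed to show that the first 3 share their upstream sequence and that Zfp933 stands apart. Zfp979 and Zfp982 are identical at 131 of 150 bases and Zfp982 and Zfp984 at 112. The number of CpG dinucleotides was 2 in Zfp979, 3 in Zfp982, 6 in Zfp984 and 8 in Zfp933. These and the chromosome 2 stretches were chosen after their scores were seen.
Zfp979: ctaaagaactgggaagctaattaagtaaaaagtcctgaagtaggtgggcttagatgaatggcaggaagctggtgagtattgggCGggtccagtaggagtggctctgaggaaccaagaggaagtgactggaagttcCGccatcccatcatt
Zfp982: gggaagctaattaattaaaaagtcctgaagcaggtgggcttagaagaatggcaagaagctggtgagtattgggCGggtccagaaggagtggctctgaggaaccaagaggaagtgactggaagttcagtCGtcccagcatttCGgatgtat
Zfp984: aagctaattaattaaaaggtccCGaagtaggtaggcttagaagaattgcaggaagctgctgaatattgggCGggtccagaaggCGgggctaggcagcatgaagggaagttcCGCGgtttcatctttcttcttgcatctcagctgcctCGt
Zfp933: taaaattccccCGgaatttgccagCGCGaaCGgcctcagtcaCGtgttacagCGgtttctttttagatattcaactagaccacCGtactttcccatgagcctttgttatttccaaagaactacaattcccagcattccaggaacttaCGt

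Over all 171 genes, marked promoters had a median of 97.6% unique windows and unmarked ones 20.4%. Where at least 50% of the windows were unique, 121 of 136 genes (89.0%, interval 82.6 to 93.2) were marked, and where fewer were, 16 of 35 (45.7%, interval 30.5 to 61.8). For other protein-coding genes the shares were 68.7% and 10.1%. Of Zfp genes below 600, 183 of 189 (96.8%) and 1 of 5 were marked. Among the clustered genes of the set the same counts were 63 of 69 and 12 of 29. Of the 23 unmarked genes on chromosomes 2 and 4, 18 had under 50% of their windows unique, and 7 unmarked genes but no marked one had none at all. A window with more than 1 equally good place gives no uniquely mapped read in this genome. Whether a copy with up to 2 mismatches also removes a read depends on mapping options that the Methods do not give. The part of repeated sequence in the missing summits was not tested. Repeated promoters were not always unmarked. Zfp808, Zfp934 and Zfp935 on chromosome 13, with 30.8%, 19.4% and 10.4% unique windows, scored 179, 178 and 178, and Zfp934 and Zfp935 share their summit. Conversely, 15 unmarked genes had at least 50% of their windows unique, 9 of them isolated and 6 in clusters (Zfp982, Zfp985, Zfp626, Zfp977, Zfp936 and Zfp869). Measured over the RefSeq promoter windows described below, the closest other gene of the set was at least 90% identical for 11 of 21 unmarked genes and for 6 of 119 marked ones with a RefSeq promoter.

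**Figure D4:**
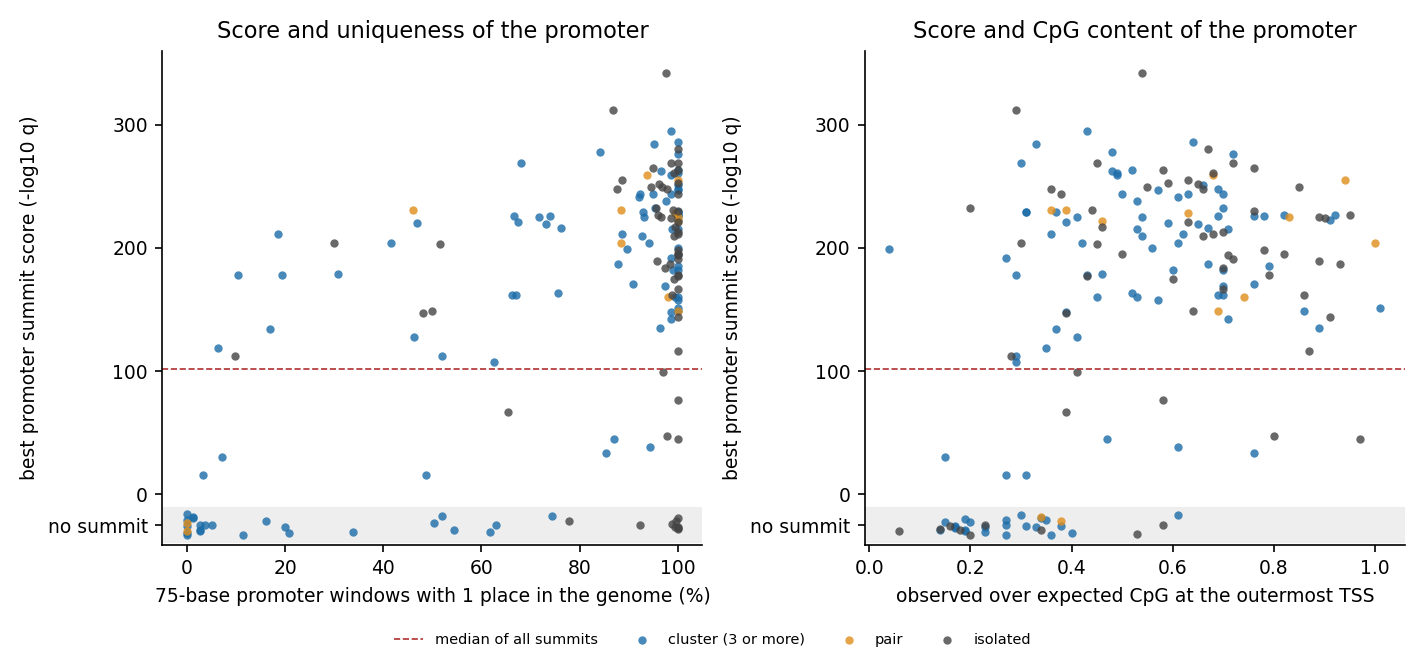
Best promoter score (y axis, −log10 q) against the share of 75-base promoter windows with 1 place in the genome (left, percent) and against the observed over expected CpG within 500 bp of the outermost TSS (right); genes without a summit lie in the grey band. On the left the band holds both repeated clustered genes near 0% and isolated genes near 100%, and on the right it ends at 0.61.

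CpG content separated the genes as well. The observed over expected CpG within 500 bp of the outermost TSS had a median of 0.53 over the 171 genes, 0.56 over all protein-coding genes and 0.65 over Zfp genes below 600. When all protein-coding genes were cut into 3 equal groups by this ratio, 35 of 35 genes of the set in the upper group were marked, 89 of 101 in the middle group and 13 of 35 in the lower group. For other protein-coding genes the shares were 96.5%, 80.2% and 18.8%. For Zfp genes below 600 they were 96.8%, 96.6% and 69.2%, the last from 9 of 13 genes. Of the 35 genes in the lower group, 18 also had under 50% of their windows unique, so both measures overlap and were not separated. Median scores of the marked genes were 178, 219 and 195 from the lower to the upper group, and 109, 183 and 208 for other protein-coding genes. The ratio was taken at the outermost TSS also where the best summit lay at an internal one, as at Zfp748 and Zfp759. Genes with the KRAB pattern were marked in 77 of 97 cases with a median score of 221, and those without it in 60 of 74 with a median of 197. With at least 50% of the windows unique, these shares were 90.4% and 87.3%.

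The highest scores belonged mostly to genes with the KRAB pattern. Zfp949 on chromosome 9 (ENSMUSG00000032425, chr9:88548020-88571061, plus strand) scored 342, 1 of the 2 summits that share the highest score of the list. Its summit lay 77 bp downstream of a start site. Zfp950 on chromosome 19 had 312, and Zfp938 295, Zfp956 286, Zfp748 284, Zfp867 280.4, Zfp870 278 and Zfp689 276 followed. Of these 8 genes, 7 have the KRAB pattern, Zfp956 being the exception, beside 77 of all 137 marked genes (56.2%). Marked Zfp genes below 600 had median scores of 228 with the pattern and 209.6 without it. The difference was not tested. The observed over expected CpG around the outermost TSS was 0.29 at Zfp950 and 0.54 at Zfp949, whose summits both lay within that stretch. The upstream 150 bases of Zfp949 (chr9:88547870-88548019, plus strand) and Zfp950 (chr19:61140841-61140990, minus strand), the 2 top genes, hold 4 and 3 CpG dinucleotides, in capitals.
Zfp949: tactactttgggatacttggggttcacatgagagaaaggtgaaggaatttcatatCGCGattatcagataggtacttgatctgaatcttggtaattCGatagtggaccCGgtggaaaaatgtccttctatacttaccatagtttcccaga
Zfp950: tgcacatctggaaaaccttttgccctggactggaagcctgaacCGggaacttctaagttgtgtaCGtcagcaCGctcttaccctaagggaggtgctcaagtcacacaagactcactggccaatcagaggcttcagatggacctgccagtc

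At the low end, Zfp991 at 15.4 and Zfp984 at 15.9 were followed by Zfp972 at 29.9, Zfp819 at 33.9, Zfp872 at 38.0, Zfp820 at 44.9, Zfp618 at 44.9 and Zfp704 at 47.7. For the first 3 of these, under 50% of the promoter windows were unique. Promoters of the other 5 were at least 85.4% unique, and Zfp618 and Zfp704 were also rich in CpG, at 0.97 and 0.80. Zfp704 had a second summit, of 194, in its body 1171 bp from the nearest start site, just outside the window. Scores under 100 were rare, with 11 of 137 marked genes, and 111 scored above 150.

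The 9 isolated genes without a promoter summit formed another kind. They were Zfp608, Zfp616, Zfp648, Zfp663, Zfp683, Zfp735, Zfp750, Zfp831 and Zfp957, and their promoters were at least 77.9% unique, with a median CpG ratio of 0.20. Zfp608 and Zfp663 had the highest ratios, 0.58 and 0.53. At least a pair of them have well-known roles outside the brain. Zfp750 drives epidermal differentiation, and Zfp683, also called Hobit, acts in tissue-resident lymphocytes. The roles of the others are not described here, and a link between role and missing summit was not tested. Zfp608 on chromosome 18 differed from the rest in that a summit of 309.6, higher than 99.9% of the list, lay in its body 2580 bp from the nearest annotated start site, with 2 more of 67.4 and 45.5. The nearest summits of Zfp663 (score 9.08) and Zfp626 (score 144) were 2725 and 2195 bp away, and those of the other unmarked genes lay beyond 3 kb, up to 777418 bp. No gene owed its marked status to the edge of the window, since the best summit of each marked gene lay at most 701 bp from a start site. Scores could still depend on it, as that of Zfp704 became 194 with a window of 3 kb.

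Some of the genes have known roles, and those below were chosen for them. Zfp809, which recognises the primer binding site of murine retroviruses and recruits TRIM28, scored 225, and Zfp932, which silences endogenous retroviruses in embryonic stem cells, 230.4. Zfp819, a KRAB gene studied in pluripotent cells, had only 33.9. Of chromatin regulators, Zfp638, an RNA-binding protein that silences unintegrated retroviral DNA, had 261. Zfp644, a partner of the G9a and GLP methyltransferases, had 230.4, and Zfp827, which binds telomeric chromatin, 213. Zfp618, a partner of UHRF2 at hydroxymethylated DNA, scored 44.9. Zfp830, needed in RNA splicing, had 229.7. Of genes tied to the nervous system, Zfp609, which acts with Integrator and NIPBL in cortical neuron migration, had 224, Zfp711, an X-linked intellectual disability gene, 144, and Zfp746, the parkin substrate PARIS, 151. The corepressor Zfp703 scored 198 and its relative Zfp704 47.7, and Zfp652 had 227 and Zfp800 191. For Zfp652 and Zfp746 the best summit lay 662 and 540 bp downstream, and within 500 bp their best scores were 35.2 and 11.1. For Zfp800 it was 28.7 with the outermost TSS alone. Zfp638 had 183 under each of these 2 settings, and Zfp644 had no promoter summit with the outermost TSS alone.

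The genes through which KRAB proteins act were all marked. Trim28 scored 171 and Setdb1 89.2, and the 20 partners listed (heterochromatin proteins, histone deacetylases, NuRD remodellers, DNA methyltransferases and others) had a median of 175, from 57.7 at Uhrf1 to 248 at Chd4 and Cbx3. A share of 65.2% is the background for this count too, and the median score over all marked protein-coding genes was higher, at 195. The best summits of Cbx3 and Cbx5 (238) lay 760 and 853 bp upstream of their start sites. Both genes stand head to head with a coding gene, Hnrnpa2b1 and Hnrnpa1, so these scores cannot be given to 1 gene. Trim28 also has a coding gene, Slc27a5, head to head with a start site. The best summit of Trim28 lay 488 bp upstream of an internal start site, and whether Slc27a5 shares that promoter was not examined.

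Summits sat just inside the transcribed region. The best summit lay downstream of the nearest TSS at 115 of 137 marked genes (83.9%). Over all 137, with upstream distances counted as negative, the distance had a median of 145 bp and quartiles of 81 and 237 bp. Over all marked protein-coding genes the median was 171 bp and the share 79.3%. One promoter summit was present at 123 genes, 2 at 13 and 3 at Zfp740. In 12 genes the start site faced that of another coding gene within 1 kb, and all 12 were marked, beside 94.4% of other protein-coding genes arranged in this way. Among the 12 were Zfp672 with Sh3bp5l (255), Zfp654 with Cggbp1 (249.5), Zfp830 with Cct6b (229.7) and Zfp664 with Ccdc92 (187). At such promoters a summit cannot be given to 1 of the 2 genes. A further 19 summits lay inside 12 of the genes beyond 1 kb of their start sites. Several belonged to other start sites, such as that of 208 in Zfp935, 94 bp from a start site of Gm49359, that of 198 in Zfp652, 313 bp from Phospho1, and that of 167 in Zfp973, 163 bp from Gm14305.

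Promoters of these genes also shared short letters. RefSeq windows from 250 bases before to 50 after the TSS were matched for 140 of the 171 genes and 16311 coding genes, and searched on both strands. CCAAT, the core of the NF-Y site, was found in 59.3% of the 140 against 38.6% of all promoters. It was in 66 of the 119 marked ones and in 17 of the 21 unmarked ones. It is the ccaat of Zfp950, Zfp966, Zfp971 and Zfp931 printed above, and attgg, its complement, in Zfp979, Zfp982 and Zfp984. TATAAA was present in 3.57% against 12.8%, and CCGGAAG, an ETS site, in 18.6% against 12.4%. GGGCGG, the GC box, which can overlap the complement of CCAAT, was in 44.3% against 48.2%, GCGCATGC (NRF1) in 5% against 3.72% and AAGATGG (YY1) in 7.86% against 6.47%. Because many of these promoters descend from common ancestors, the matches are not independent of each other and no test was made.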

How the data were processed

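The deposited file is the list of WT H3K4me3 peak summits, each 1 bp long, with a score that was read as −log10 of the MACS2 q-value from its range and the Methods. Per the Methods and the submitters' processing notes, single-end reads were mapped by the authors with Bowtie (mm10, no more than 2 mismatches), reads with several places were dropped, and MACS2 2.1.0.20140616 found peaks over input. Both WT mice were pooled. The lists and tracks of the mutants were not analysed here, and 0 per-sample columns were left unmatched.

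Summits were assigned to all TSSs of GENCODE M21 (GRCm38, the same assembly) within 1 kb. Unique windows were counted on the RefSeq GRCm38 chromosomes and unplaced contigs. The mice are 129xB6 hybrids, and 129 alleles were not considered. C2H2 fingers and the KRAB pattern were counted in translations of the longest GENCODE coding sequence, in place of the RefSeq proteins that were planned. Promoter identity came from global alignment without cost for end gaps. Chained genes are clusters from 3 members on. Shares carry 95% Wilson intervals. Summit assignment and window counting were tested on simulated data. Genes named are the 8 highest and 8 lowest scores, all members of the 3 largest clusters, the highest member of each other cluster, isolated unmarked genes and genes of known role. Others, including genes of unmarked clusters, were named after their values were seen. The members and gene lists were chosen with earlier results of these data known. Python 3.11.15, numpy 2.4.6, pandas 2.3.3, scipy 1.17.1, numba 0.67.0, Biopython 1.88 and matplotlib 3.10.9 were used. Of the marker genes looked up to check the tissue, 1 is not reported here.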

Additional observations from a re-analysis of the deposited data

How the results depend on the processing

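The 7 summary values (shares and median scores over all, clustered and isolated genes) were recomputed with promoter windows of 500 bp and 3 kb, the outermost TSS or coding transcripts only, summits at or above the list median, joined summits, summits given to the nearest coding TSS, repeated promoters left out, and chaining at 100 and 500 kb. Of 64 recomputed values, 60 stayed within the 95% interval of the reported one. Leaving out genes with under 50% of their promoter windows unique raised the share of marked genes to 89.0%, that of genes at or above the list median to 83.1% and the marked share in clusters to 91.3%. The share of isolated genes was then 84.5%, so the order of clustered and isolated genes turned. It also turned with chaining at 100 kb, with 85.9% of clustered and 77.6% of isolated genes marked. The cause was not tested. By chromosome, the share on chromosome 4 became 10% with summits at or above the list median and 50% without repeated promoters. Of the scores of named genes, 394 were the same under the alternatives, 7 moved, 12 were lost and 2 were gained. No paired analysis was possible because the 2 WT samples were deposited as 1 pooled list. Scores have no error between mice, their depth cannot be read from the list, and intervals cover counting error only.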

Other observations

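The genes can also be read by the number in their symbol. Of the 43 genes numbered 600 to 699, 83.7% were marked, of the 38 numbered 700 to 799 92.1%, of the 27 numbered 800 to 899 92.6% and of the 63 numbered 900 to 999 65.1%. The last group had the KRAB pattern in 76.2% of its genes and stood in clusters in 74.6%, against 25.6% and 27.9% of those numbered 600 to 699. It also held 30 of the 35 genes with under 50% of their promoter windows unique. Among genes with at least 50% unique, the marked shares of the 4 groups were 85.7%, 94.3%, 92.3% and 84.8%. These groups were formed after the scores were seen and were not tested.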
